A study of Homo sapiens with 15 samples.

Results

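The 10 genes described here, GSR, GCLC, GCLM, SLC7A11, MGST3, TXN, TXNRD1, PRDX1, NQO1 and SELENBP1, serve glutathione, thioredoxin and related redox reactions. They were found by symbol in a table of 18485 counted genes, and all 10 were present. All 10 were also among the 6767 genes with enough reads to be tested. The cells were SNB19, an established human glioblastoma line, grown in DMEM with serum and transduced with the lentiviral vector pCHMWS. The 5 groups of 3 libraries carried the mutant of a short form of ZBTB18 (SF-mut), the unmutated short form (SF-Nte), the mutant of the full-length protein (FL-mut), the full-length protein (FL) or the empty vector (EV). ZBTB18 is a zinc finger repressor of transcription. Every group, EV included, thus went through transduction with the same backbone. The promoter that drives the inserts, the mutated residues, any selection of transduced cells and the time of harvest were not given in the sources used here. Nothing in the labels says that replicates were separate cultures. The spread that the p-values measure is therefore that among these libraries, and it may be technical.

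NRF2, encoded by NFE2L2, is a transcription factor that KEAP1 keeps scarce by handing it to a ubiquitin ligase. Oxidants and electrophiles modify KEAP1, NRF2 then accumulates, pairs with small MAF proteins and binds antioxidant response elements near genes of redox defence. In glioma cells this programme is known for its part in cystine uptake, glutathione supply and resistance to oxidative treatments. SLC7A11 imports cystine in exchange for glutamate. GCLC and GCLM are the catalytic and modifier subunits of glutamate-cysteine ligase, which makes the precursor of glutathione. GSR returns oxidised glutathione to its reduced form, and MGST3 is a membrane-bound enzyme that uses glutathione. TXN is thioredoxin, TXNRD1 the selenoenzyme that reduces it, and PRDX1 a peroxiredoxin that removes peroxide and is recharged by thioredoxin. NQO1 reduces quinones, and SELENBP1 is a selenium-binding protein that oxidises methanethiol.

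Promoters from RefSeq, on build GRCh38.p14, reach from 250 bases before to 50 bases after a transcription start. The table held 7 promoters of 6 of the 10 genes (NQO1, TXN, TXNRD1 from a pair of starts, GCLM, GCLC and MGST3). Of these, 3 promoters of 2 genes contained the core of the antioxidant response element, TGACNNNGC on either strand, against 13.3% of all 35116 promoters of this length. The promoters of the 2 genes with a match are printed because they show where it lies, and that of MGST3 because it is the gene of the 6 that passed a test below. Capitals mark the matches, and each sequence runs along the strand of its gene. They lie at chr1:93909381-93909680 (GCLM, minus strand), chr12:104215529-104215828 (TXNRD1, plus strand, the start farthest upstream) and chr1:165630984-165631283 (MGST3, plus strand).
GCLM: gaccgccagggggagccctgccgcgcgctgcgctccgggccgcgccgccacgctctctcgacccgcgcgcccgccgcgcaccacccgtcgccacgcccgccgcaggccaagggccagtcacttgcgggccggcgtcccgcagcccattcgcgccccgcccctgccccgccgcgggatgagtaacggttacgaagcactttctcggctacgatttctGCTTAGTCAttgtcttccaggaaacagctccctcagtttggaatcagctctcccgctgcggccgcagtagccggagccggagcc
TXNRD1: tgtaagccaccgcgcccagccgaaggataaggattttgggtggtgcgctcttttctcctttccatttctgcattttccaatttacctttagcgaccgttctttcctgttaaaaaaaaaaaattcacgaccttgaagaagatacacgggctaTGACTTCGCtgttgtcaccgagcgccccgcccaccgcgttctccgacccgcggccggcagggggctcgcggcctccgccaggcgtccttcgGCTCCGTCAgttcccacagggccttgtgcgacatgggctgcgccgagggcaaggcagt
MGST3: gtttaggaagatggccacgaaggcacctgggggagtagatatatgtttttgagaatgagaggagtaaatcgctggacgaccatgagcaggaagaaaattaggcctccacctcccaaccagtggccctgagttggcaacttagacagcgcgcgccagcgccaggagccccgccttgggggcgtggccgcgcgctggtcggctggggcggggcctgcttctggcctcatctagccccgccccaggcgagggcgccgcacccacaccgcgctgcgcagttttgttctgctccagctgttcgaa
In GCLM the match began at -34 from the start, on the strand opposite to the gene. In TXNRD1 one began at -99 on the strand of the gene and another at -8 on the opposite strand, and the other TXNRD1 start had one at -102 on the opposite strand. The letters ACATCTG, part of the sequence that ZBTB18 is known to bind, stood in 0 of the 7 promoters and in 3.4% of all promoters. The letters TGACTCA of the AP-1 site, which resemble the antioxidant response element, also stood in 0 of the 7 and in 4.95% of all. A match or its lack describes only the letters in these windows.

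Library totals were 315693 to 597414 counts in SF-mut, 432611 to 603155 in SF-Nte, 865997 to 1313573 in FL-mut, 803316 to 1393060 in FL and 1274474 to 1930245 in EV. Levels are given as CPM, read counts scaled to a common library size with edgeR's TMM factors. ZBTB18 stood at 199 CPM or more in every library with a ZBTB18 construct and at 4.37 to 7.12 CPM in EV. The labels reuse barcode names with a suffix for SF-mut, and a separate sample sheet holds SF-mut with SF-Nte. The barcode names of SF-Nte carry no suffix and run on from those of FL-mut. Separate handling of the short-form libraries, if it took place, cannot be told apart from the form. Separate handling of SF-mut alone could likewise not be told apart from its construct, also in the comparison with SF-Nte. The 8 markers of glioma or mesenchymal glial cells were all in the table, with summed levels of 1206 to 1547 CPM in SF-mut, 1248 to 1517 in SF-Nte, 716 to 1048 in FL-mut, 355 to 636 in FL and 688 to 1521 in EV. Markers of immune, epithelial and endothelial cells summed to at most 30.8, 117 and 21.4 CPM in any library. FL-mut replicate 2 and SF-mut replicate 2 stood apart from the rest in base composition. The median of the GC-richest quintile of genes exceeded that of the GC-poorest by 0.99 in FL-mut replicate 2 and 1.19 in SF-mut replicate 2, on the log2 scale relative to each gene's mean, against 0.60 in EV replicate 1 and -0.55 to 0.22 in the other libraries.

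Across the 5 groups, 2 of the 10 genes differed by edgeR's quasi-likelihood test with Benjamini-Hochberg adjustment over all genes tested: GSR (adjusted p = 0.018) and SELENBP1 (adjusted p = 0.038). At this threshold of 0.05, 1.12% of all genes tested passed. MGST3 came next with an adjusted p = 0.060 by edgeR, and the other genes lay between 0.38 and 0.85. DESeq2, tried as another tool, called MGST3 as well as GSR and SELENBP1, and 652 of the 6759 genes to which it gave an adjusted p. With 1 of the 15 libraries left out in turn, GSR passed in 14 fits and missed the threshold without SF-Nte replicate 1 (edgeR adjusted p = 0.058). SELENBP1 passed in 6 of these 15 fits, with an edgeR adjusted p of up to 0.114. In bulk RNA, fewer cells with a transcript and less of it per cell cannot be told apart.

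**Figure D1:**
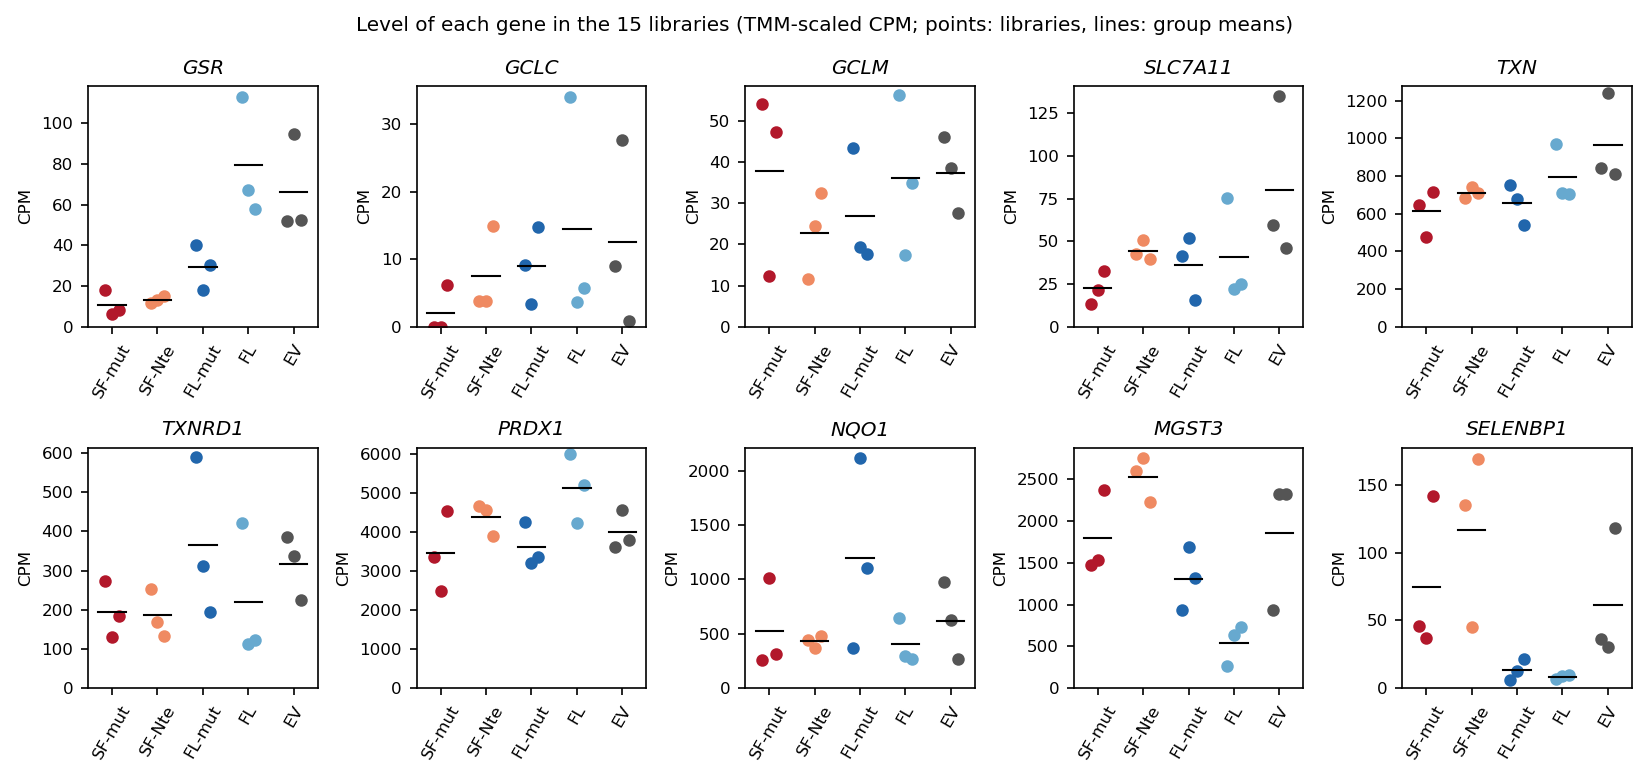
Level of each of the 10 genes in CPM (linear axes from 0, a different scale in each panel), with a point for each of the 3 libraries of a group and a line at the group mean. GSR lay between 6.16 and 18.0 CPM in the short-form libraries and at 52.0 CPM or more in FL and EV, whereas MGST3 and SELENBP1 had their lowest means in FL.

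Between pairs of groups, GSR, MGST3 and SELENBP1 passed in SF-Nte against FL, and none of the 10 genes passed in the other 7 comparisons. In SF-Nte against FL, 2 genes were higher and 1 lower, where 1.06% of all genes tested passed. The same 3 genes were those whose libraries did not overlap between SF-Nte and FL with an unadjusted p under 0.05, a state that 11.4% of all genes shared. The median log2 fold change of the 10 genes was -0.20 there, against -0.15 for all genes.

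Against EV, 0 of the 10 genes passed with edgeR under any of the 4 constructs. In SF-mut against EV 0.0591% of all genes passed, in SF-Nte against EV 0.0443%, in FL-mut against EV 0.192% and in FL against EV 0.31%. Unadjusted p-values under 0.05 were found for 3 of the 10 genes in SF-mut, 1 in SF-Nte, 3 in FL-mut and 2 in FL, and DESeq2 called 1, 1, 0 and 2. Over all 6767 genes, the unadjusted p was under 0.05 for 363 in SF-mut, 489 in SF-Nte, 709 in FL-mut and 517 in FL. DESeq2 called 26 of 6759 genes in SF-mut, 31 of 4660 in SF-Nte, 145 of 5184 in FL-mut and 140 of 4266 in FL. All of the genes of the 10 with an unadjusted p under 0.05 had libraries wholly below those of EV, which was so with an unadjusted p under 0.05, in either direction, for 3.96% of all genes in SF-mut, 5.97% in SF-Nte, 7.68% in FL-mut and 6.28% in FL. The count in SF-Nte is close to its background, and those in SF-mut, FL-mut and FL are above theirs, with no p attached. The 10 genes were chosen with earlier results of these data known, so no excess can be read from these counts. The median log2 fold change of the 10 genes was -0.45 in SF-mut, -0.63 in SF-Nte, -0.49 in FL-mut and -0.40 in FL, against -0.02, -0.13, 0.04 and -0.01 for all genes tested. These 4 comparisons share the EV libraries.

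Between mutant and unmutated constructs, 0 of the 10 genes passed with edgeR, where 0% of all genes passed in SF-mut against SF-Nte and 0.0887% in FL-mut against FL. For SF-mut against SF-Nte, 0 of the 10 had an unadjusted p under 0.05, while 564 of all 6767 genes did and DESeq2 called 4 of all genes. For FL-mut against FL, 4 of the 10 had an unadjusted p under 0.05 (GSR, MGST3, NQO1 and PRDX1), as did 821 of all 6767 genes. DESeq2 called none of the 10 there and 116 of 5316 genes. Libraries did not overlap, with an unadjusted p under 0.05, for 0 of the 10 genes in SF-mut against SF-Nte and for 4.92% of all genes. In FL-mut against FL this held for 2 of the 10, GSR lower and MGST3 higher, and for 8.26% of all genes. In SF-mut against FL-mut, 0 of the 10 passed with edgeR and 0.163% of all genes did. Of the 10, 2 had libraries apart with an unadjusted p under 0.05, GSR lower and SELENBP1 higher, as did 7.12% of all genes. DESeq2 called SELENBP1 there, among 117 of 5447 genes. The difference between the effects of the mutation in the short and the full-length form was tested as an interaction. It passed for 0 of the 10 genes and 0.0296% of all genes in edgeR. Among the 10, only MGST3 had an unadjusted p under 0.05 there, at -1.77 ± 0.54 on the log2 scale (SE; adjusted p = 0.98 in edgeR), while 315 of all 6767 genes had one. DESeq2 called none of the 10.

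**Figure D2:**
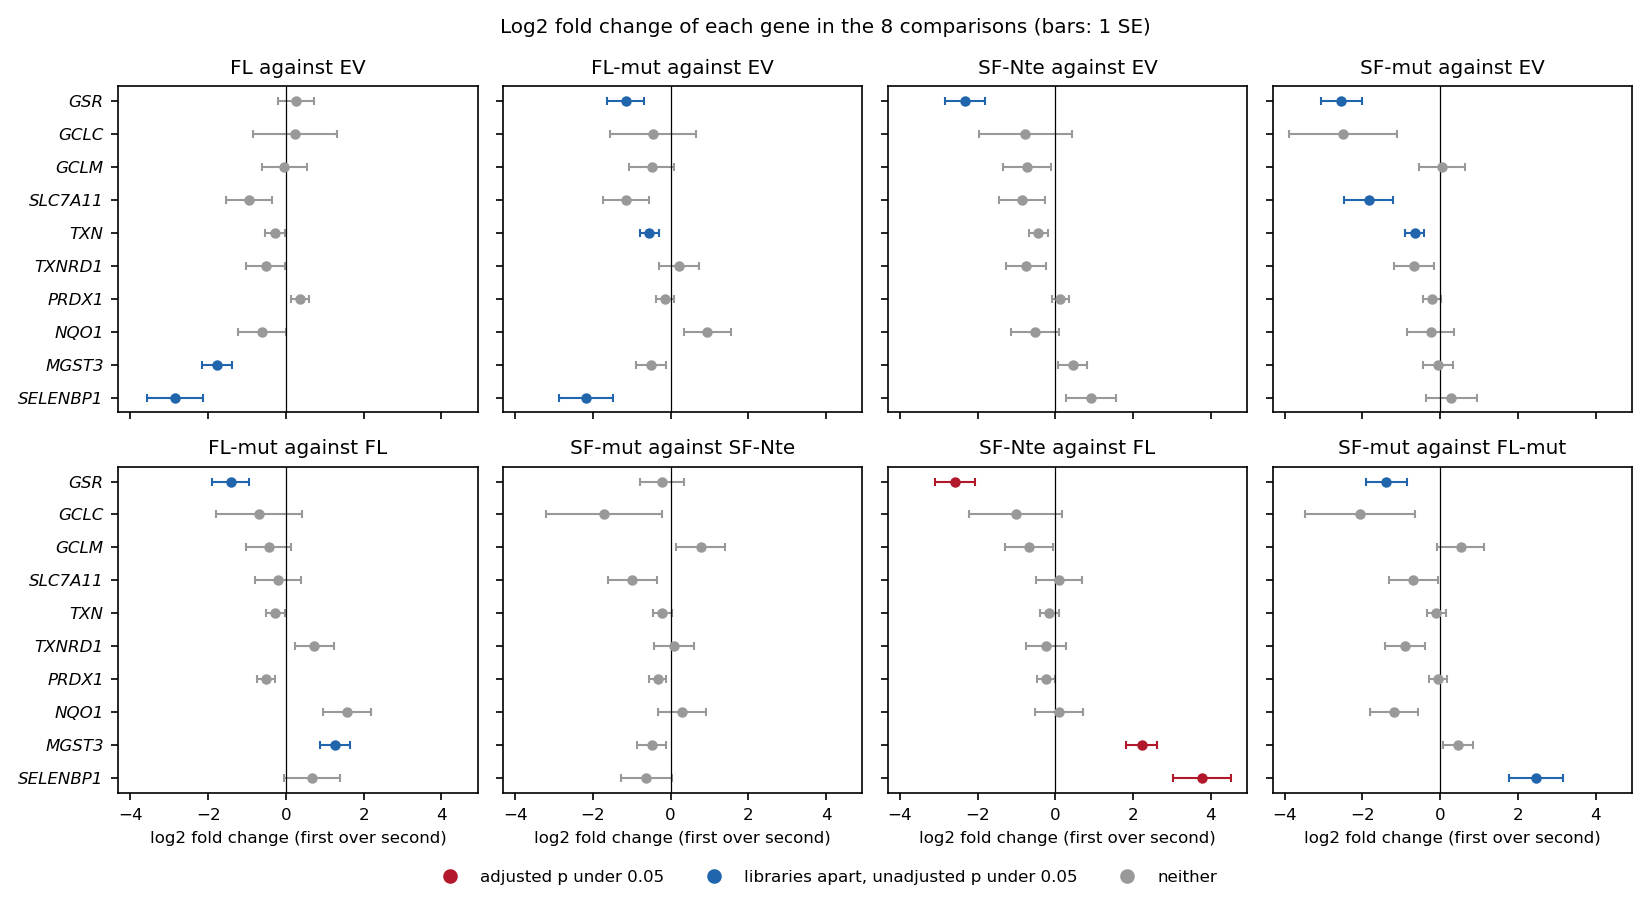
Log2 fold change (first group over second) of the 10 genes in the 8 comparisons, with bars of 1 SE, from edgeR. Red marks an adjusted p under 0.05, which GSR, MGST3 and SELENBP1 reached in SF-Nte against FL, and blue marks libraries that did not overlap with an unadjusted p under 0.05.

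GSR, which regenerates reduced glutathione (chromosome 8, 30678061 to 30727999, minus strand, GRCh38), was low in both short-form groups. Its levels were 18.0, 6.16 and 8.20 CPM in SF-mut and 11.6, 13.2 and 14.9 CPM in SF-Nte. They were 40.4, 18.1 and 30.2 CPM in FL-mut, 113, 67.2 and 58.1 CPM in FL, and 52.0, 94.7 and 52.5 CPM in EV. By overlap of libraries alone, the 5 groups fell into 3 levels: FL and EV overlapped, FL-mut lay below both, and SF-Nte and SF-mut, which overlapped each other, lay below FL-mut. The share of all genes with libraries apart whatever their p is not given here, for GSR or for the genes below. Such orders therefore have no background beside them. The steps at FL-mut that were tested did not pass (edgeR adjusted p = 0.40 against EV, 0.32 against FL and 0.39 for SF-mut against FL-mut). The gap was narrow between SF-mut replicate 1, at 18.0 CPM, and FL-mut replicate 2, at 18.1 CPM. The values rest on 2 to 11 reads per short-form library, against 16 to 41 in FL-mut, 54 to 163 in FL and 59 to 130 in EV.

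GSR fell in SF-Nte against FL, with means of 13.2 ± 1.69 CPM in SF-Nte and 79.4 ± 29.5 CPM in FL (SD, n = 3 each). The log2 fold change was -2.58 ± 0.52 (SE; edgeR adjusted p = 0.024). The call was lost without any one of 5 of these 6 libraries, FL replicate 3 being the exception (adjusted p up to 0.148 in edgeR, log2 fold change -2.77 to -2.22). With all libraries thinned to the smallest total, it was -2.45 with an edgeR adjusted p = 0.046. Against EV, whose mean was 66.4 ± 24.5 CPM (SD, n = 3), no GSR value passed. The log2 fold change was -2.54 ± 0.53 in SF-mut (edgeR adjusted p = 0.15), -2.32 ± 0.52 in SF-Nte (0.20) and -1.16 ± 0.47 in FL-mut (0.40). GSR in FL-mut against FL had a log2 fold change of -1.42 ± 0.47 (edgeR adjusted p = 0.32), and in SF-mut against FL-mut of -1.38 ± 0.52 (0.39). Without SF-mut replicate 1, the highest SF-mut library, GSR in SF-mut stood at -3.26 against EV and -2.05 against FL-mut (edgeR adjusted p = 0.11 and 0.26). DESeq2 called GSR lower in both short forms against EV (adjusted p = 0.0092 in SF-mut and 0.0080 in SF-Nte).

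The genes that supply glutathione with cysteine and join its first pair of amino acids did not pass in any comparison. SLC7A11, the cystine importer (chromosome 4, 138164097 to 138242349, minus strand), stood at 13.1, 21.6 and 32.8 CPM in SF-mut and 42.4, 50.8 and 39.8 CPM in SF-Nte. It was read at 41.4, 52.1 and 15.5 CPM in FL-mut, 75.6, 22.4 and 25.2 CPM in FL, and 59.5, 135 and 46.3 CPM in EV. Each SF-mut library lay below each SF-Nte and each EV library, while FL and FL-mut overlapped all other groups. The log2 fold change of SLC7A11 in SF-mut against EV was -1.84 ± 0.63 (SE; unadjusted p = 0.0099, adjusted p = 0.67 in edgeR). It rests on 7 to 16 reads per SF-mut library, against 52 to 185 in EV.

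GCLC, the catalytic subunit of glutamate-cysteine ligase (chromosome 6, 53497341 to 53616970, minus strand), was barely read. Its levels were 0, 0 and 6.15 CPM in SF-mut, 3.85, 3.76 and 14.9 CPM in SF-Nte, 9.09, 3.40 and 14.7 CPM in FL-mut, 34.0, 3.73 and 5.81 CPM in FL, and 9.002, 27.7 and 0.890 CPM in EV. The count of 0 allows up to 4.90 CPM in SF-mut replicate 1 and 9.25 CPM in SF-mut replicate 2 (3 counts, for counting error only), so a difference from the lower libraries of the other groups was not detectable at this depth. Within FL and within EV a single library was several times above the others. GCLM, the modifier subunit (chromosome 1, 93885205 to 93909456, minus strand), had 53.9, 12.3 and 47.2 CPM in SF-mut, 11.6, 24.5 and 32.4 CPM in SF-Nte, and 43.4, 19.2 and 17.7 CPM in FL-mut. Its levels were 56.2, 17.4 and 34.8 CPM in FL and 46.0, 38.6 and 27.6 CPM in EV. All 5 groups of GCLM overlapped their neighbours in the order of means, and its test over the groups gave an edgeR adjusted p = 0.85, the highest of the 10 genes.

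MGST3, the membrane-bound glutathione enzyme (chromosome 1, 165630861 to 165661796, plus strand), was lowest in FL. Its levels were 1474, 1535 and 2372 CPM in SF-mut and 2596, 2751 and 2224 CPM in SF-Nte. They were 929, 1687 and 1315 CPM in FL-mut, 270.5, 631 and 726 CPM in FL, and 931, 2316 and 2321 CPM in EV. No FL library reached the lowest library of any other group, and the order of means was SF-Nte, EV, SF-mut, FL-mut and FL, in which only FL-mut and FL were neighbours without overlap. MGST3 rose in SF-Nte against FL, with means of 2524 ± 271 CPM in SF-Nte and 542 ± 240.2 CPM in FL (SD, n = 3 each). This is 2.22 ± 0.40 as a log2 fold change (SE; edgeR adjusted p = 0.014). That call held without FL replicate 1 or FL replicate 3 and was lost without any one of the other 4 libraries (edgeR adjusted p up to 0.062, log2 fold change 1.91 to 2.50).

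Against EV, with a mean of 1856 ± 801 CPM (SD, n = 3), MGST3 in FL had a log2 fold change of -1.78 ± 0.39 that missed the threshold (SE; edgeR adjusted p = 0.075). Without EV replicate 1, the lowest EV library, the value was -2.10 and passed (edgeR adjusted p = 0.023), and DESeq2 called it on all libraries (adjusted p = 0.0026). In FL-mut against FL the log2 fold change of MGST3 was 1.27 ± 0.39 (SE; edgeR adjusted p = 0.27). The summed markers of glioma or mesenchymal glial cells were also lowest in FL. Of the 6 of these 8 markers that were tested, only VIM, which encodes vimentin, passed in SF-Nte against FL, at 765 ± 69.5 CPM in SF-Nte and 226 ± 74.6 CPM in FL (SD, n = 3 each; edgeR adjusted p = 0.036), and DESeq2 called SPARC besides. The markers did not all go one way. FN1, which encodes fibronectin, averaged 22.3 ± 10.6 CPM in SF-Nte, 77.2 ± 25.2 CPM in FL and 14.5 ± 12.2 CPM in EV (SD, n = 3 each), and S100B was read in 2 FL libraries alone, at up to 4.16 CPM. Their part in the MGST3 and SELENBP1 results was not tested.

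SELENBP1, the selenium-binding methanethiol oxidase (chromosome 1, 151364302 to 151372733, minus strand), was low in both full-length groups. Its levels were 45.8, 37.0 and 141 CPM in SF-mut and 135, 45.2 and 169 CPM in SF-Nte. They were 6.06, 12.4 and 21.4 CPM in FL-mut, 6.94, 8.71 and 9.68 CPM in FL, and 36.0, 30.6 and 118 CPM in EV. Every FL-mut and FL library lay below every library of the other 3 groups, with 6 to 29 reads in each, and no other neighbours in the order of means were apart. In SF-mut, SF-Nte and EV the libraries spread widely, and replicate 3 was the highest library in all 5 groups.

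SELENBP1 rose in SF-Nte against FL, with means of 116 ± 64.1 CPM in SF-Nte and 8.44 ± 1.39 CPM in FL (SD, n = 3 each). This is 3.77 ± 0.75 as a log2 fold change (SE; edgeR adjusted p = 0.023). It passed without SF-Nte replicate 2 and not without any one of the other 5 libraries (edgeR adjusted p up to 0.131, log2 fold change 3.38 to 4.16). In SF-mut against FL-mut the log2 fold change was 2.47 ± 0.71 (SE; edgeR adjusted p = 0.23; DESeq2 adjusted p = 0.035), with means of 74.7 ± 58.0 CPM in SF-mut and 13.3 ± 7.70 CPM in FL-mut (SD, n = 3 each). Without SF-mut replicate 3 it was 1.57 (edgeR adjusted p = 0.61). Against EV, with a mean of 61.7 ± 49.2 CPM (SD, n = 3), SELENBP1 had log2 fold changes of -2.18 ± 0.69 in FL-mut (edgeR adjusted p = 0.27) and -2.85 ± 0.72 in FL (0.14). Without EV replicate 3, the highest EV library, these were -1.35 and -2.00, and without FL-mut replicate 3 that of FL-mut was -2.77. DESeq2 called SELENBP1 lower in FL against EV (adjusted p = 0.0061).

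**Figure D3:**
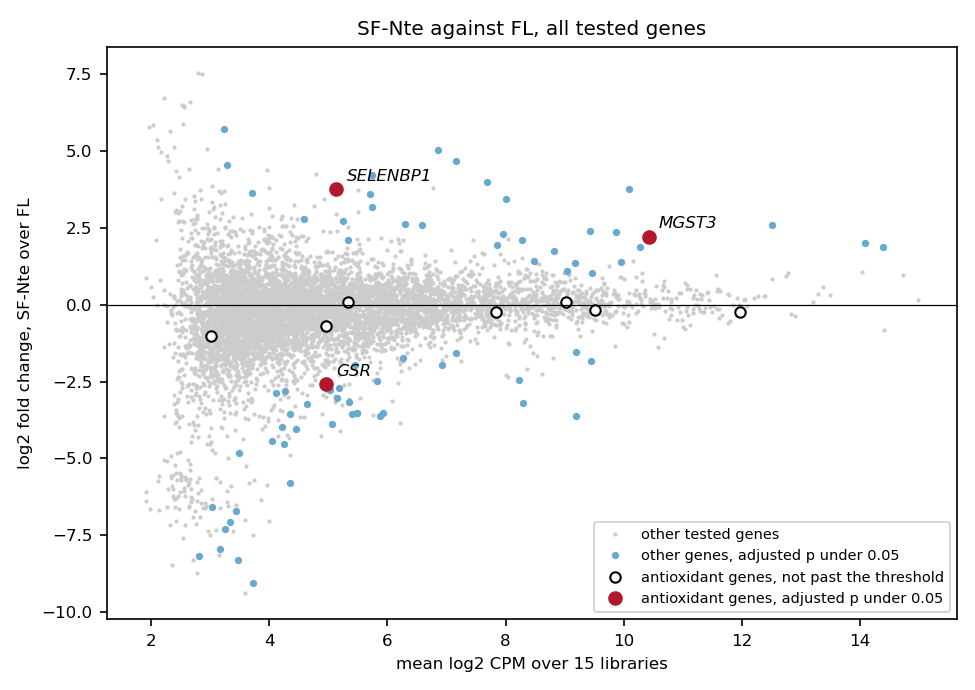
Log2 fold change of SF-Nte over FL for the 6767 tested genes, against their mean log2 CPM over the 15 libraries. GSR at -2.58, MGST3 at 2.22 and SELENBP1 at 3.77 (red) had an adjusted p under 0.05 in edgeR, and the open circles of the other 7 genes lay between -1.02 and 0.10.

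In the thioredoxin branch, none of the 3 genes passed in any comparison. TXN, thioredoxin itself (chromosome 9, 110243811 to 110256640, minus strand), stood at 649, 478 and 716 CPM in SF-mut, 686, 743 and 709.7 CPM in SF-Nte, and 755, 679 and 543 CPM in FL-mut. In FL it had 970.2, 709 and 707 CPM and in EV 842, 1241 and 814 CPM. The EV libraries lay above every library of SF-mut, SF-Nte and FL-mut and overlapped those of FL. The log2 fold change of TXN was -0.65 ± 0.25 in SF-mut against EV (SE; edgeR adjusted p = 0.78) and -0.55 ± 0.25 in FL-mut against EV (0.45). Of 7 annotated TXN pseudogenes, 3 were in the table, with at most 2 reads in a library.

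TXNRD1, which passes electrons from NADPH to thioredoxin (chromosome 12, 104215779 to 104350305, plus strand), had 273, 129 and 185 CPM in SF-mut, 254, 169 and 134 CPM in SF-Nte, 589.8, 312 and 195 CPM in FL-mut, 422, 112 and 122 CPM in FL, and 386, 337 and 224 CPM in EV. Replicate 1 was the highest TXNRD1 library in every group, and all groups overlapped their neighbours. The peroxiredoxin gene PRDX1 (chromosome 1, 45511036 to 45523047, minus strand) varied least of the 10, with 3358, 2487 and 4523 CPM in SF-mut, 4657, 4562 and 3885 CPM in SF-Nte, 4247, 3213 and 3349.5 CPM in FL-mut, 5982, 4214 and 5199 CPM in FL, and 3621, 4554 and 3795 CPM in EV. Its groups overlapped as well. PRDX1 shares 2347 bases with MMACHC on the opposite strand, which had at most 167 reads in a library, and the use of strand in the counting was not given in the sources used here.

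NQO1, the quinone reductase often used as a readout of NRF2 (chromosome 16, 69706996 to 69726951, minus strand), varied widely within groups. Its levels were 258, 1011 and 314 CPM in SF-mut and 445, 369 and 483 CPM in SF-Nte. They were 374, 2119.8 and 1104 CPM in FL-mut, 648, 299 and 266 CPM in FL, and 973, 625 and 267 CPM in EV. All groups overlapped, and the highest library of SF-mut and of FL-mut was replicate 2, the library of each that stood apart in base composition. The highest EV library of NQO1, replicate 1, was also the EV library with the largest difference between GC-rich and GC-poor genes. The NQO1 transcript itself was of middling GC content, at percentile 50.1 of 6651 tested genes with a transcript in the annotation, and the part of base composition in its level was not tested. NQO1 passed in no comparison, with all libraries or without both libraries that stood apart. Without the filter on low counts it passed in FL-mut against FL and in SF-mut against FL-mut.

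**Figure D4:**
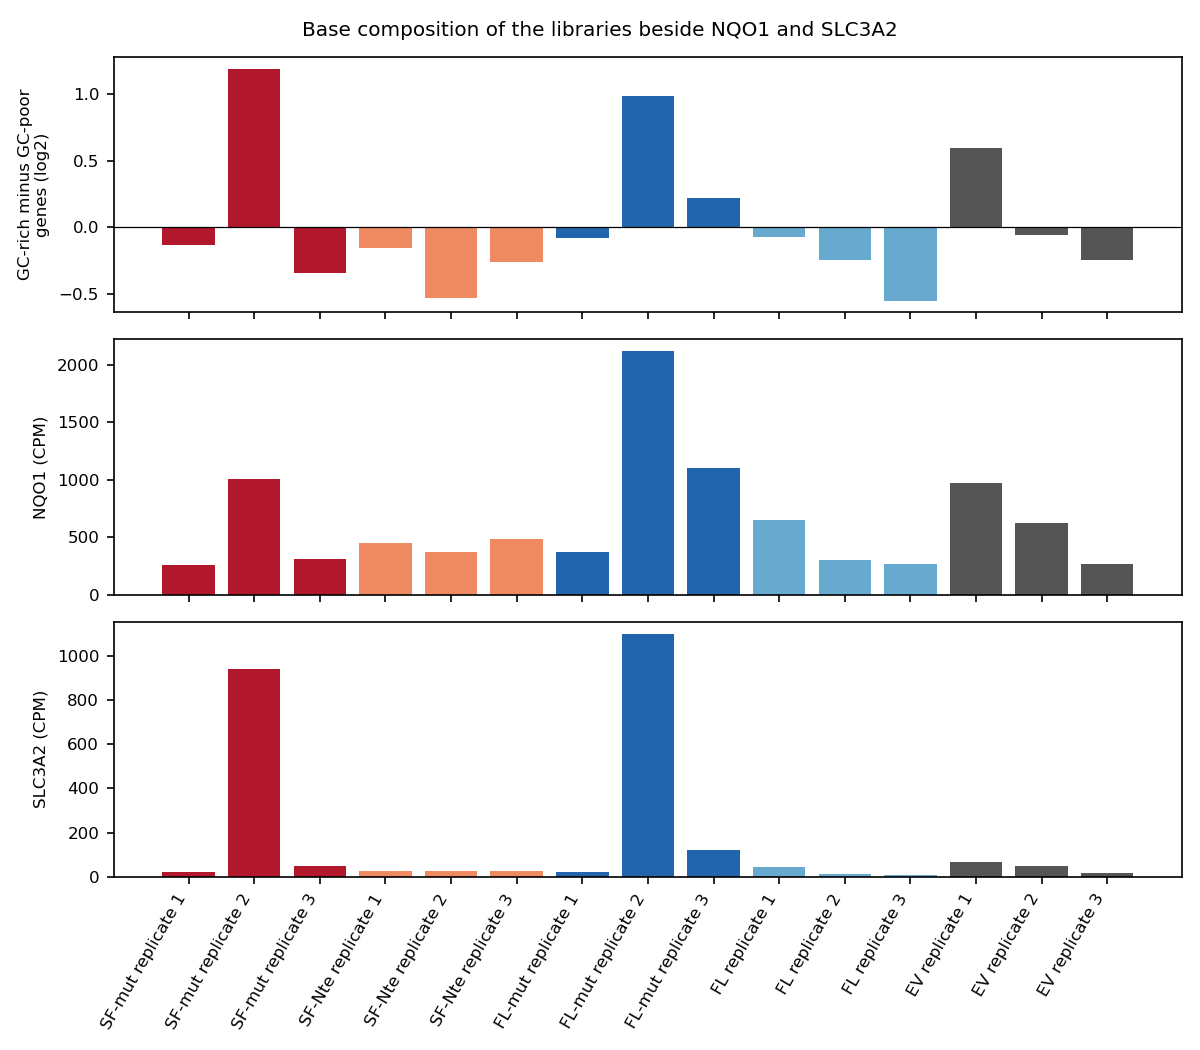
Difference in median log2 level between the GC-richest and the GC-poorest quintile of genes (top, 0 is the mean over libraries), beside the CPM of NQO1 (middle) and of SLC3A2 (bottom), in each of the 15 libraries. SF-mut replicate 2 and FL-mut replicate 2 were the highest libraries of their groups in all 3 panels.

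The 10 genes did not all go the same way, as GSR fell in SF-Nte against FL where MGST3 and SELENBP1 rose. Likeness over the 15 libraries was measured as the root mean square difference of the log2 CPM, each gene taken relative to its own mean. This measure is not scaled to the spread of a gene, so genes that vary little lie close to each other. TXN and PRDX1 were the closest of the 10, at 0.26. They also varied least, with the highest library at 2.60 and 2.40 times the lowest. MGST3 and SELENBP1, the genes that rose in SF-Nte against FL, were each other's nearest, at 0.96. GSR was nearest to TXN, at 0.97, where the SD of GSR itself over the 15 libraries was 1.20. FL replicate 1 was the highest FL library for 8 of the 10 genes, all but MGST3 and SELENBP1, for which it was the lowest. The share of all genes that were highest in that FL library is not given here, so this may be a trait of the library.

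Among all other tested genes, those most like SELENBP1 were SH3BGRL, at a difference of 0.61, PLAU, at 0.71, and TMSB4XP4, at 0.76, where the median over all genes was 1.73. Those most like GSR were TWSG1, at 0.46, PTCD1, at 0.47, and LRRFIP2, at 0.49, with a median over all genes of 1.33. SH3BGRL encodes a small protein related to glutaredoxins, and PLAU the urokinase plasminogen activator. SELENBP1 and GSR were compared in this way because their group means spanned the widest log2 ranges of the 10.

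Other genes of the pathway were read from lists. The list counts over the 5 groups stand against 1102 of all 6767 genes with an unadjusted edgeR p under 0.05 and 652 of 6759 called by DESeq2. Of 10 regulators of NRF2, 6 were tested and SQSTM1 alone passed. It encodes p62, which binds KEAP1 and so favours NRF2. SQSTM1 fell to 258, 200.3 and 170 CPM in SF-mut and 166, 167 and 117 CPM in SF-Nte, against 1457, 5102 and 822 CPM in EV (edgeR adjusted p = 0.025 in SF-mut and 0.029 in SF-Nte). It had 980, 770 and 406 CPM in FL-mut and 1881, 2542 and 1086 CPM in FL, and was lower in SF-Nte than in FL as well (edgeR adjusted p = 0.011). As with GSR, every short-form library of SQSTM1 lay below every FL-mut library, and every FL-mut library below every FL library. Unlike GSR, SQSTM1 in FL-mut overlapped EV, at 406 to 980 against 822 to 5102 CPM. Libraries were apart with an unadjusted p under 0.05 for 7.12% of all genes in SF-mut against FL-mut and 8.26% in FL-mut against FL. The share of all genes with this whole order is not given here, and a common cause was not tested. The SQSTM1 calls against EV were lost without any one library of the short form concerned (edgeR adjusted p up to 0.23 in SF-mut and 0.21 in SF-Nte), and that against FL without SF-Nte replicate 1 or 3 (up to 0.054). The gene overlaps MRNIP on the opposite strand, so reads may not be separable. NFE2L2, the gene of NRF2 itself, did not pass, with means of 21.4 ± 16.4 CPM in SF-mut, 32.0 ± 14.8 in SF-Nte, 19.0 ± 7.26 in FL-mut, 28.9 ± 25.6 in FL and 22.5 ± 2.14 in EV (SD, n = 3 each).

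Of 30 other targets of NRF2, 26 were tested and 0 passed with edgeR, over the 5 groups or in any comparison. Over the 5 groups, 8 had an unadjusted p under 0.05 (1102 of 6767 over all genes) and DESeq2 called 2, ABCC3 and AKR1B10 (652 of 6759 over all genes). ABCC3, an efflux pump for conjugates, was lowest in FL, with 0.693, 0 and 2.90 CPM, against 13.5, 21.1 and 20.5 CPM in EV. DESeq2 called ABCC3 in FL against EV, in FL-mut against FL and in SF-Nte against FL. Over all genes it called 140 of 4266, 116 of 5316 and 296 of 6759 in these comparisons. AKR1C2, an aldo-keto reductase, had 468, 85.8 and 192 CPM in FL and 24.5, 153 and 30.3 CPM in EV, and these groups overlapped. Of 31 other glutathione enzymes, 21 were tested and 0 passed with edgeR. Over the 5 groups 6 of these 21 had an unadjusted p under 0.05, and DESeq2 called 2, GLRX and GSTK1, beside the same counts over all genes. The glutathione transferase GSTK1 had 975, 730.2 and 745 CPM in SF-Nte and 409, 389 and 651 CPM in FL, without overlap. Its lowest group was FL-mut, at 261 to 341 CPM. Glutaredoxin, from GLRX, had 125, 136 and 305 CPM in FL-mut and 28.0, 77.95 and 68.6 CPM in EV, again without overlap. DESeq2 called none of these 21 genes in SF-Nte against FL. It called GLRX in FL-mut against EV and in SF-mut against FL-mut, among 145 of 5184 and 117 of 5447 genes. Such separation, with an unadjusted p under 0.05, held for 11.4% of all genes in SF-Nte against FL and 7.68% in FL-mut against EV.

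Of 23 other thioredoxin and peroxiredoxin genes, 19 were tested and 0 passed with edgeR, while over the 5 groups 6 had an unadjusted p under 0.05 and DESeq2 called 5, PRDX2, PRDX3, PRDX4, PRDX5 and SELENOS. Over all genes these counts were 1102 of 6767 and 652 of 6759. SELENOS, a selenoprotein of the endoplasmic reticulum, had 52.5, 287 and 142 CPM in FL-mut and 30.0, 32.0 and 22.3 CPM in EV, without overlap. The peroxiredoxin PRDX5 had 44.4, 306 and 121 CPM in FL-mut and 18.7, 19.9 and 26.1 CPM in FL, without overlap. Replicate 2, the FL-mut library that stood apart, was the highest FL-mut library of both genes. DESeq2 called SELENOS in FL-mut against EV, and PRDX5 and TXNDC17 in FL-mut against FL. Over all genes it called 145 of 5184 and 116 of 5316 in these comparisons. Among all genes, libraries did not overlap, with an unadjusted p under 0.05, for 7.68% in FL-mut against EV and 8.26% in FL-mut against FL. Of 7 genes for superoxide and peroxide removal, 5 were tested and 0 passed with edgeR, while over the 5 groups 3 had an unadjusted p under 0.05 and DESeq2 called 3, CAT, PARK7 and SOD2, beside the same counts over all genes. Catalase, from CAT, stood at 38.5, 30.1 and 34.9 CPM in SF-Nte and 9.71, 7.46 and 12.6 CPM in FL, and the SF-Nte libraries were above all others in the series. The share of all genes with libraries apart in SF-Nte against FL, with an unadjusted p under 0.05, was 11.4%. The share of all genes with SF-Nte above every other library is not given here. DESeq2 called CAT and PARK7 in SF-Nte against FL, among 296 of 6759 genes. The mitochondrial dismutase gene SOD2 had 393, 1008 and 1079 CPM in FL-mut and 350.1, 449 and 271 CPM in EV, which overlapped.

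SLC7A11 is also a target of ATF4, the factor of the amino acid response, and of 15 listed genes, ATF4 and 14 of its other targets, 13 were tested. None passed with edgeR, while over the 5 groups 5 had an unadjusted p under 0.05 (1102 of 6767 over all genes) and DESeq2 called 3, DDIT3, SLC3A2 and SLC7A5 (652 of 6759). SLC3A2, the partner chain of SLC7A11 at the membrane, was read at 19.6, 943 and 49.2 CPM in SF-mut, 25.0, 24.5 and 27.4 CPM in SF-Nte, 20.2, 1101 and 120.2 CPM in FL-mut, 46.5, 13.7 and 5.81 CPM in FL, and 65.5, 46.6 and 15.1 CPM in EV. Its high libraries were again replicate 2 of SF-mut and of FL-mut, in which SLC7A11 was not raised to the same extent (21.6 and 52.1 CPM). SLC7A5, a transporter that shares the SLC3A2 chain, had 5.55, 2.49 and 0 CPM in FL and 16.5, 18.9 and 19.6 CPM in EV, without overlap. In FL against EV, 6.28% of all genes had libraries apart with an unadjusted p under 0.05. DESeq2 called PHGDH and SLC7A5 in FL-mut against FL, among 116 of 5316 genes.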

How the data were processed

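RNA came from a Trizol extraction followed by bead purification of mRNA, and libraries were made with PCR-barcoding and cDNA-PCR kits for Oxford Nanopore, per the labels' protocols. The authors deposited raw read counts for each gene symbol, as whole numbers. GRCh38 was the build, per the submitters' processing notes, while aligner, counter, strand setting and annotation were not given in the sources used here. Reads came from amplified cDNA without molecular identifiers, so floors cover counting error only. No 2 replicates agreed within sampling noise (chi-square per gene 4.23 to 39.0).

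Tests used edgeR 4.0.16 (R 4.3.3). The function filterByExpr, with a minimum count of 10 and a minimum total of 15, removed 11718 genes and left 6767. All 15 libraries entered 1 quasi-likelihood fit with TMM scaling, robust dispersion and 10 residual degrees of freedom, and p-values were adjusted across all genes tested by Benjamini-Hochberg, at 0.05. The standard error is the log2 fold change divided by the square root of F. A log2 fold change is printed for a gene that passed, or whose libraries did not overlap with an unadjusted p under 0.05. The interaction value of MGST3 is printed besides, for its unadjusted p under 0.05. From the other lists, genes that passed against EV, or else 2 of lowest p over the groups, are named with levels. NFE2L2, TXNDC17, PHGDH, the markers VIM, SPARC, FN1 and S100B, and the listed genes that DESeq2 called over the 5 groups are named besides. Those named besides were chosen after their values were seen. The 10 genes, the lists and the tests were chosen with earlier results of these data known. Positions and GC content came from GENCODE release 29. Alternatives were DESeq2 1.42.0, its size factors in edgeR, no filter, a replicate block, the compared groups alone and each library left out; thinning and leaving out both libraries that stood apart were added after seeing the data.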

Additional observations from a re-analysis of the deposited data

How the results depend on the processing

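None of the 16 log2 fold changes printed for pairs of groups, which leave out the interaction value of MGST3, changed direction under the alternatives tried. Of their 208 alternative values, 179 stayed on their side of the threshold, 14 no longer passed, all in SF-Nte against FL with 1 library left out, and 15 passed newly. Of the 10 genes, the number that passed over the 5 groups, 2 as reported, was 4 without the filter on low counts, 1 without both libraries that stood apart in base composition, and 0 to 3 with 1 library left out. It was 3 with DESeq2 and 3 with a replicate block (GSR, MGST3 and SELENBP1), and 2 with libraries thinned to the smallest total, GSR and MGST3 in place of GSR and SELENBP1. For SF-Nte against FL it was 3 in all other alternatives and 0 to 2 with 1 library left out: 0 without FL replicate 2, SF-Nte replicate 1 or SF-Nte replicate 3, 1 without FL replicate 1 or SF-Nte replicate 2, and 2 without FL replicate 3. For FL against EV, 0 as reported, it was 2 without the filter, 2 with DESeq2, 1 without both libraries that stood apart, and 0 to 1 with 1 library left out. Without the filter, the count was 1 for SF-mut against EV, 1 for SF-Nte against EV, 1 for FL-mut against EV, 2 for FL-mut against FL, 2 for SF-mut against FL-mut and 1 for the interaction. With DESeq2 it was 1 for SF-mut against EV, SF-Nte against EV and SF-mut against FL-mut. DESeq2 called 652 genes over the 5 groups and 296 in SF-Nte against FL, against 76 and 72 with edgeR. The cause of these differences was not tested. For the alternatives other than DESeq2, the number of all genes that passed is not given here. Their counts of the 10 genes therefore have no background beside them. With a replicate block, 1 of the 10 genes passed in FL against EV, MGST3 (edgeR adjusted p = 0.025), and over the 5 groups the edgeR adjusted p was 0.015 for MGST3, 0.0099 for SELENBP1 and 0.022 for GSR. The numbers were not taken as pairs: the deviations of same-number FL and EV libraries correlated at 0.27, 0.095 and 0.27, where a limit of 0.1 for every pair was set, although 6 of these 6 libraries correlated best with their own number. Those of same-number SF-mut and FL-mut libraries correlated at 0.35, 0.46 and 0.069, and 5 of these 6 libraries did so best with their own number. The depth limits GSR, SELENBP1 and GCLC most, as these rest on 0 to 11 reads in several libraries. GCLM and SLC7A11 were also read little, with as few as 4 and 7 reads in a library.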

Other observations

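GPX4, the glutathione peroxidase that reduces lipid peroxides and is linked to SLC7A11 in ferroptosis, was read at 0, 2401 and 0 CPM in SF-mut, 46.2, 0 and 0 CPM in SF-Nte, 4.04, 2325 and 194 CPM in FL-mut, 4.16, 14.9 and 5.81 CPM in FL, and 60.01, 30.6 and 0 CPM in EV. It was chosen after its values were seen. The high libraries were SF-mut replicate 2 and FL-mut replicate 2, the same that were highest in their groups for NQO1, SLC3A2 and PRDX5, and the GPX4 transcript lay at GC percentile 97.4. The part of base composition in these levels was not tested.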
